A study of Homo sapiens with 16 samples.

Results

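SW480 and SW620 are established colorectal cancer cell lines derived from the same patient, SW480 from the primary tumour and SW620 from a lymph node metastasis. The 4 libraries of SW620 cells carrying GFP were compared with the 4 libraries of SW480 cells carrying GFP, 8 of the 16 libraries in the series, and chosen by their sample titles. GFP is the mock control, so Wnt signalling is left high in both groups. All cells were at passage 6, and polyadenylated RNA was sequenced. In the other 8 libraries the same lines carry dnLEF1, a LEF1 that blocks Wnt output; they are used here only to ask whether a line difference is also seen in separate libraries. Each group is 1 cell line, so the comparison describes these lines and not primary tumours and metastases in general. Whether the libraries came from separate cultures is not stated, so the p-values measure the spread between libraries, which may be technical.

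Most colorectal cancers lose APC, a scaffold of the complex that marks beta-catenin for destruction, and beta-catenin then enters the nucleus and activates genes with the TCF and LEF factors. In the normal crypt this programme maintains stem cells, while factors such as HNF4A and CDX2 direct differentiation of the epithelium. Spread of carcinoma cells is commonly studied through cadherins, integrins, proteases and regulators of epithelial to mesenchymal transition (EMT), and these gene groups are described below beside signalling, metabolic and immune groups.

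The libraries held between 19264519 and 24921994 counts assigned to genes. SW480 libraries had at least 1 count for 17594 to 17759 genes, and SW620 libraries for 16353 to 16486. SW620 replicate 3 differed from the rest in its alignment. The counting output's line for alignment to more than 1 place held 39.4% of its counts, against 7.61% to 8.71% in the other 7 libraries. These are shares of gene counts plus summary lines, which need not be shares of reads. That line is not in the gene counts, and the number of genes called without this library was 11110, against 11203 with it. Across 10894 genes, log2 levels correlated at 0.9903 to 0.9974 between libraries of a line and at 0.8012 to 0.8078 between the lines. Markers of other cell types were mostly too low to test: 4 of 11 fibroblast, 3 of 14 immune and 2 of 9 endothelial markers passed the filter. No count of CD3D, MS4A1, GNLY, TYROBP, ERG, CLDN5 or EMCN was found in any of the 8 libraries, and PTPRC had 0 counts in SW620 and 7 in SW480. Others were present: mean CPM in SW620 and SW480 was 24.7 and 7.2 for LUM, 0.0962 and 13.4 for ACTA2, 4.33 and 4.84 for COL1A1, 3.7 and 1.99 for CD68, and 0.255 and 2.31 for ESAM. EPCAM, the epithelial adhesion molecule of colorectal carcinoma, was at 513 ± 12.2 CPM (counts scaled to library size, SD, n = 4) in SW620 and 381 ± 17.1 in SW480.

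Of 14350 genes tested, 5411 were higher in SW620 (37.7%) and 5792 lower (40.4%) at an adjusted p below 0.05 in edgeR's quasi-likelihood test. Together they made 78.1% of the genes, so a call by itself separates few genes from the rest. Counts at 2-fold or more are therefore given below: 1345 genes were higher (9.37%) and 2816 lower (19.6%). The imbalance grew with the size of the difference. At 4-fold or more 489 genes were higher and 1663 lower, and at 32-fold or more 95 and 642. It was also concentrated in genes of low level. Among 2350 genes with a mean of at least 100 CPM, 7.49% were 2-fold higher and 6.3% lower, whereas among 4605 genes under 10 CPM 13.3% were higher and 39.4% lower. This level is the mean of both lines, so a value near 0 in 1 line lowers it and enlarges the difference. Such a gene can pass the filter through the other line alone. With at least 1 CPM in 1 line and at most 3 counts in the other, 352 genes were detected in SW480 and 51 in SW620. Their part in the imbalance was not tested. The median log2 difference of all tested genes was -0.02, and the median absolute difference was 0.55. Scaling to the library total alone moved the median by -0.10 and gave 4645 genes higher and 6457 lower. The libraries of the lines did not overlap for 72.3% of the genes.

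**Figure D1:**
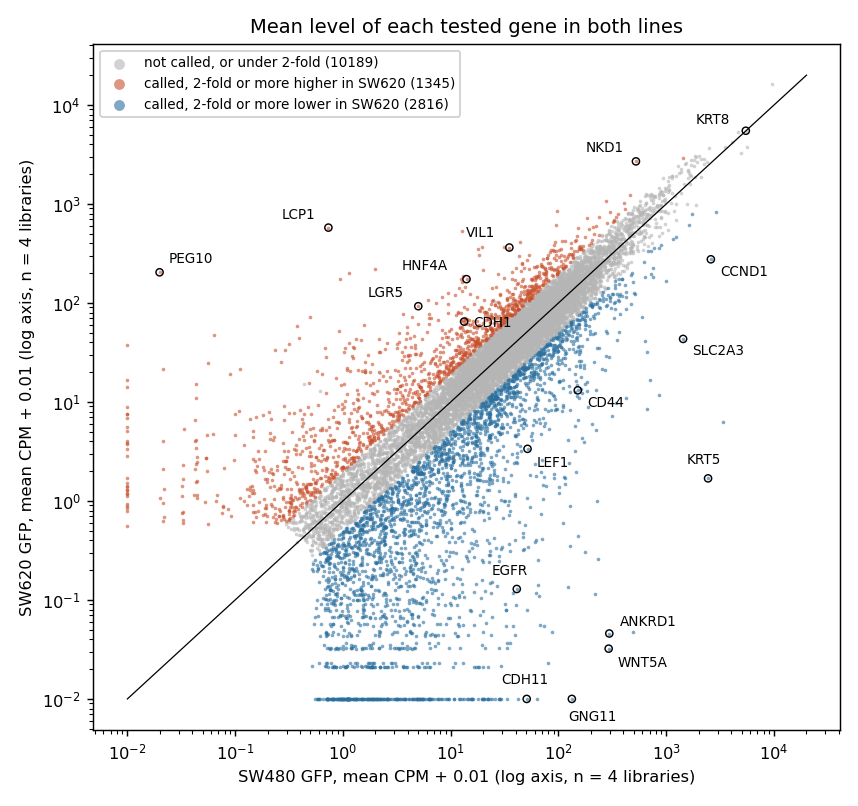
Mean CPM of each of 14350 tested genes in SW480 GFP (x axis) and SW620 GFP (y axis), both on log axes after adding 0.01, with 4 libraries a line and the diagonal marking equal levels. The 2816 genes that were 2-fold lower in SW620 outnumber the 1345 that were higher, and many of them lie at the lower edge, where SW620 has few or no counts.

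Genes of the Wnt programme differed widely and in both directions. LEF1, a transcription factor through which beta-catenin acts (chromosome 4, 108047545 to 108168956, minus strand, hg38), was at 3.6, 3.91, 2.81 and 3.07 CPM in SW620 replicates 1 to 4 and at 52.7, 52.2, 48.8 and 52.9 in SW480. The lines were far apart and did not overlap (log2 -3.94 ± 0.10, SE, adjusted p = 1.1e-14). CCND1, which encodes cyclin D1, was at 289, 258, 275 and 281 CPM in SW620 and at 2765, 2463, 2446 and 2694 in SW480, 9.4-fold lower in SW620. LGR5, the receptor that marks crypt stem cells (chromosome 12, 71439798 to 71586310, plus strand), went the other way, at 87.7, 94.9, 95.9 and 92.2 CPM in SW620 and 3.88, 5.31, 4.23 and 6.52 in SW480. It was 18.6-fold higher in SW620 (log2 4.22 ± 0.11, adjusted p = 3.46e-14). NKD1, a feedback inhibitor that binds Dishevelled, was at 2389, 2757, 2770 and 2858 CPM in SW620 and 438, 534, 533 and 587 in SW480, a log2 difference of 2.36 ± 0.09. AXIN2, another feedback inhibitor and a scaffold of the destruction complex, was at 345, 334, 336 and 311 CPM in SW620 and 567, 544, 541 and 548 in SW480. It was thus lower in SW620 (log2 -0.73 ± 0.05), opposite to NKD1. MYC was higher by a log2 difference of 0.49 ± 0.07, and APC, of the destruction complex, lower (-0.49 ± 0.08).

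Of 39 tested Wnt target genes, 13 were 2-fold higher in SW620 (33.3%) and 14 were 2-fold lower (35.9%), with a median of 0.02. This median was -0.08 with scaling to the library total alone. The higher members included the stem cell gene SMOC2 (7.32), TDGF1 (3.23), NOTUM, a secreted enzyme that inactivates Wnt ligands (2.68), and the Eph receptor gene EPHB2 (2.49). Among the lower members were the receptor gene FZD7, the Wnt inhibitor APCDD1 (-5.38 ± 0.09), DKK1 (-3.73) and the hyaluronan receptor gene CD44 (-3.52 ± 0.09). NOTUM and SMOC2 lie in stretches of neighbouring genes that were higher in SW620, and LEF1 in one that was lower, as described with the chromosomes.

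Of 46 tested ligands, receptors and nuclear factors of the pathway, 9 were 2-fold higher (19.6%, against 9.37% of all genes) and 22 lower (47.8%, against 19.6%), with a median of -0.92. Both shares were above those of all genes. WNT5A, a ligand of non-canonical signalling, had 2 counts over the 4 SW620 libraries and 26548 in SW480, where it stood at 315, 277, 274 and 302 CPM. The ratio was 12495 with a 95% exact Poisson interval of 3459 to 103180; intervals and floors of this kind cover counting error only. ROR2, a receptor for WNT5A, was at 0.0112 ± 0.0225 CPM in SW620 and 17.2 ± 1.22 in SW480. Frizzled receptor genes went opposite ways: FZD7 was at 33.6 ± 2.16 CPM in SW480 with 2 counts in SW620, while FZD10 was at 35.3 ± 2.33 CPM in SW620 and 1.03 ± 0.107 in SW480. The coreceptor genes LRP5 (1.88) and LRP6 (1.57) were higher. CTNNB1, which encodes beta-catenin itself, was at 614 ± 8.08 CPM in SW620 and 1635 ± 90.5 in SW480 (log2 -1.41 ± 0.06), and the corepressor genes TLE1, TLE2 and TLE4 were 2-fold lower or more, TLE1 by -5.17.

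**Figure D2:**
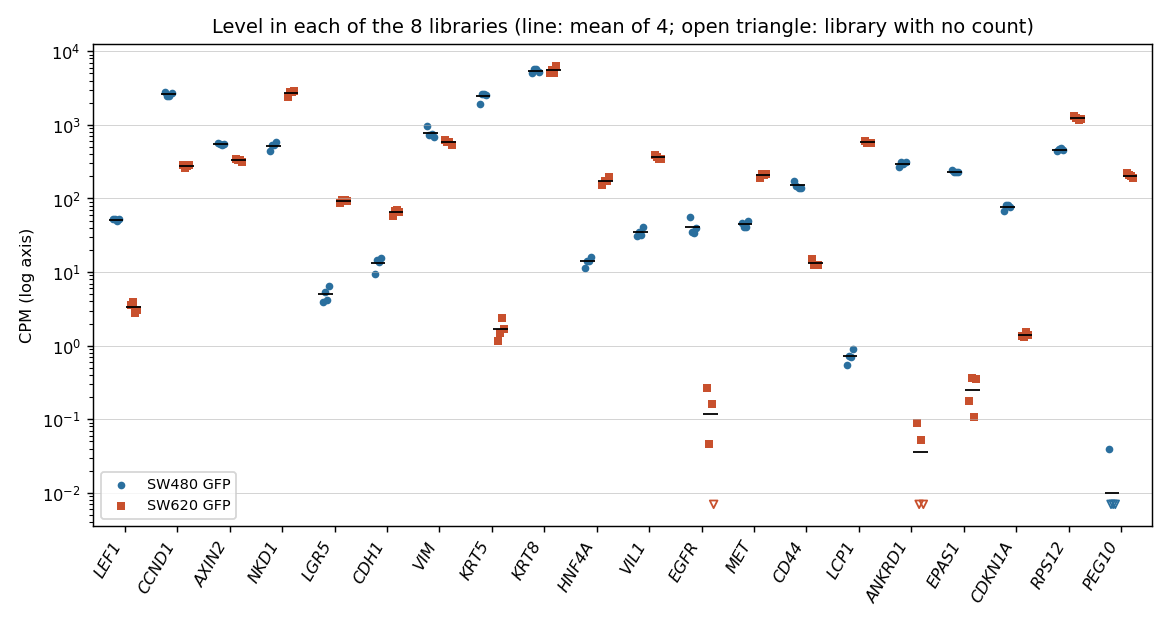
CPM (log axis) of 20 genes in each of the 4 SW480 GFP libraries (circles) and 4 SW620 GFP libraries (squares), with a line at each mean and an open triangle, drawn at a fixed height, for a library with no count. Libraries of a line lie close together for most genes shown, and the lines overlap for KRT8.

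Epithelial genes differed in both directions. CDH1 is the gene of E-cadherin, the cadherin of epithelial adherens junctions (plus strand of chromosome 16, 68737292 to 68835537). It was at 57.5, 67.3, 68.8 and 65.8 CPM in SW620 and at 9.53, 14.6, 13.7 and 15.5 in SW480. It thus stood 4.88-fold higher in SW620, with no overlap (log2 2.29 ± 0.12, adjusted p = 9.95e-11). CDH1 lies inside a stretch of chromosome 16 whose genes were mostly higher in SW620. CLDN7, a claudin of tight junctions, was lower instead, at 1.44, 1.79, 1.11 and 2.4 CPM in SW620 and 115, 117, 115 and 117 in SW480, a log2 difference of -6.08 ± 0.12. MAL2, which serves apical transport, differed by -8.02 ± 0.13, and AP1M2, which sorts proteins to the basolateral membrane, by -6.56 ± 0.24. Of 34 tested genes of epithelial identity, 6 were 2-fold higher (17.6%, against 9.37% of all genes) and 7 lower (20.6%, against 19.6%). The lower share was thus close to that of all genes, and the median was -0.18. The higher ones were CDH1, S100A14, LLGL2, ERBB3, ESRP2 and MUC1.

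Junction genes also differed in both directions. Among 22 genes of adherens junctions and desmosomes, CDH1 and PERP were 2-fold higher, and 7 were lower (31.8%). CDH11, a cadherin of mesenchymal cells, had no count in SW620 and 50.7 ± 3.75 CPM in SW480, at least 1444-fold lower against a floor of 3 counts over the group's 4 libraries. P-cadherin, encoded by CDH3 beside CDH1 on chromosome 16, was at 0.138 ± 0.129 CPM in SW620 and 22.9 ± 3.03 in SW480 (log2 -7.29 ± 0.27, or -8.06 without SW620 replicate 4). CDH3 and CDH11 thus ran against most genes of the stretch that holds CDH1. Of 30 tight junction genes 3 were 2-fold higher, with CGNL1 (3.66) first, and 10 were lower (33.3%).

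Regulators and products of EMT also divided. ZEB1, a repressor of CDH1, was at 15.9, 15.7, 16.4 and 16.5 CPM in SW620 and 20.7, 14.5, 14.2 and 15.9 in SW480; the lines overlapped and the gene was not called (log2 -0.02 ± 0.11, adjusted p = 0.874). SNAI2 was not called either (0.30 ± 0.14, adjusted p = 0.0549), while SNAI1 was higher in SW620 (1.35). VIM, the intermediate filament of mesenchymal cells, was at 583 ± 34.8 CPM in SW620 and 781 ± 118 in SW480 (log2 -0.42 ± 0.09). Of 25 tested genes 2 were 2-fold higher, SNAI1 and the matrix gene TNC (5.40 ± 0.41), and 8 were lower (32%). The lower ones were MMP2, ACTA2, SPARC, LOXL2, MMP14, FN1, AXL and EMP3, with FN1 at -2.62 and AXL, a receptor kinase, at -2.07.

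Of 20 tested keratin and mucin genes 2 were 2-fold higher in SW620, KRT7 and MUC1, and 8 were lower (40%). KRT5, a keratin of basal epithelial cells, was at 1.17, 1.47, 2.39 and 1.69 CPM in SW620 and 1930, 2649, 2624 and 2565 in SW480. It differed by -10.52 ± 0.17 on the log2 scale (adjusted p = 1.81e-15). KRT6A (-6.44 ± 0.35, or -7.15 without SW620 replicate 1) and KRT23 (-6.30 ± 0.13) were lower too. KRT16, another keratin of stratified epithelium, had too few counts to be tested, 35 in SW620 and 36 in SW480. KRT8, a keratin of simple epithelium, was at 5022, 5540, 5074 and 6329 CPM in SW620 and 5082, 5834, 5727 and 5237 in SW480. Those ranges overlapped, and KRT8 was not called (0.01 ± 0.08, adjusted p = 0.948). Its partner KRT18 was slightly lower (-0.58 ± 0.09). KRT8 and KRT18 overlap at their ends on opposite strands, and the strand setting of the counting is not given.

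Cell-matrix adhesion genes, like all genes tested, were more often 2-fold lower than higher in SW620. Of 32 genes of integrins and focal adhesion, 4 were 2-fold higher (12.5%) and 10 lower (31.2%). ITGA3, a laminin receptor subunit, was at 7.29, 6.85, 6.63 and 7.96 CPM in SW620 and 351, 296, 286 and 324 in SW480, a log2 difference of -5.45 ± 0.09. ITGA1, a collagen receptor subunit, differed by -5.70 ± 0.12. TNS3, a focal adhesion adaptor, was higher (3.12 ± 0.06), and ITGB4, of hemidesmosomes, by only 0.37 ± 0.08. The matrix list had 4 of 26 genes 2-fold higher (FBLN1, LUM, HSPG2, NID1) and 12 lower (46.2%), among them the collagen genes COL13A1 and COL4A1. Proteases of invasion and their inhibitors were 2-fold lower for 15 of 26 (57.7%, against 19.6% of all genes) and 2-fold higher for 1, TMPRSS2 (2.48). MMP14, a membrane-bound collagenase, was at 6.62 ± 1.09 CPM in SW620 and 49.2 ± 3.46 in SW480, and the lysosomal protease gene CTSL at 2.41 ± 0.653 and 39 ± 3.48.

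Adhesion genes of the immunoglobulin, protocadherin and neural type were 2-fold lower for 17 of 25 (68%, against 19.6% of all genes). They were 2-fold higher for 4 (16%, against 9.37%), and the median was -1.69. NCAM1, the neural cell adhesion molecule, was at 0.034 ± 0.0432 CPM in SW620 and 39.8 ± 3.88 in SW480. MCAM, a melanoma-associated adhesion molecule, differed by -4.39 ± 0.08. The members that were 2-fold higher were NRCAM, ROBO1, ALCAM and PCDH19. In the Eph and guidance list 6 of 33 were 2-fold higher (18.2%) and 15 lower (45.5%). EFNB2, a membrane-bound ephrin ligand, was at 361, 371, 364 and 375 CPM in SW620 and 17.9, 18.3, 18.7 and 22.9 in SW480. EPHB4, its receptor, moved opposite, at 8.19, 9.42, 8.06 and 8.54 CPM in SW620 and 100, 93.6, 98.4 and 96.3 in SW480. EFNB2 lies in a stretch higher in SW620 and EPHB4 in one that was lower.

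Actin genes included some of the largest differences. LCP1, which encodes the actin-bundling protein L-plastin (chromosome 13, 46125920 to 46211871, minus strand), was at 602, 568, 574 and 564 CPM in SW620 and 0.554, 0.714, 0.713 and 0.912 in SW480. It was 798-fold higher in SW620 (log2 9.64 ± 0.10, adjusted p = 2.92e-18). CNN3, a calponin, was 111-fold higher, and FSCN1, the bundling protein of filopodia, 6.93-fold. GSN, which severs actin filaments, was lower (-3.52 ± 0.10), as was EVL, which elongates them (0.0265 ± 0.053 CPM in SW620 and 7.58 ± 1.25 in SW480). Of 59 tested genes of actin and motility 10 were 2-fold higher (16.9%) and 15 lower (25.4%). Of 34 genes linked with metastasis in the literature, 10 were 2-fold higher and 12 were 2-fold lower. MACC1, a regulator of MET in colorectal cancer, was at 207 ± 15.9 CPM in SW620 and 37.2 ± 4.33 in SW480, and S100P was 30-fold higher. S100A4 was higher by 0.51 ± 0.07. CXCR4, a chemokine receptor, was at 0.54, 0.505, 0.318 and 0.222 CPM in SW620 and 66.7, 59, 61.1 and 60.6 in SW480, hence lower in the metastasis line (-7.26 ± 0.14).

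Genes listed as transcription factors of the gut were mostly higher in SW620. Of 25 tested, 11 were 2-fold higher (44%, against 9.37% of all genes) and 3 lower, with a median of 0.75. The list also holds TFF3, a secreted peptide and not a transcription factor, which is 1 of the 11. HNF4A, a nuclear receptor of enterocyte differentiation (chromosome 20, 44355699 to 44432845, plus strand), was at 152, 175, 174 and 197 CPM in SW620 and 11.2, 14.3, 14.3 and 16.2 in SW480. It was 12.5-fold higher (log2 3.64 ± 0.10, adjusted p = 6.33e-14). FOXA2 (3.27 ± 0.09), GATA6 (2.94), MYB (3.42 ± 0.07) and SOX2 (3.72 ± 0.11) were higher as well, SOX2 inside a stretch of chromosome 3 in which 25 of 27 genes were lower. CDX2, the homeobox factor of intestinal identity, was an exception, at 9.27, 6.11, 5.09 and 5.87 CPM in SW620 and 11.4, 12.2, 12.9 and 12.3 in SW480 (log2 -0.88 ± 0.15). FOXA1, VDR and HES1 were the 3 members that were 2-fold lower.

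Several structural genes of the brush border were higher too. VIL1, which encodes villin, was at 389, 372, 344 and 347 CPM in SW620 and 31.4, 35.3, 31.8 and 41.4 in SW480, 10.4-fold higher (log2 3.38 ± 0.09). CDHR2, a cadherin that links microvilli, and its partner USH1C differed by 4.15 ± 0.24 and 2.72 ± 0.18, and EPS8L3 by 2.41 ± 0.11. Members of the same list that were lower included the sodium-proton exchanger gene SLC9A2 (-7.07 ± 0.43), the peptidase gene DPP4 (0.0452 ± 0.0636 CPM in SW620 and 1.43 ± 0.523 in SW480) and the glucose transporter gene SLC5A1 (-3.32), and the list as a whole had 6 of 19 genes 2-fold higher (CA12 and AQP1 being the other two) and 8 lower. KRT20, a marker of differentiated colon cells, had too few counts to be tested, 15 in SW620 and 26 in SW480.

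Of 38 listed secretory and neuroendocrine genes 16 were tested. Of these, 2 were 2-fold higher (12.5%, against 9.37% of all genes) and 11 lower (68.8%, against 19.6%). Members such as UCHL1 and PCSK1 passed the filter through SW480 alone, with 1 and 3 counts in SW620. DCLK1, a kinase of tuft cells, was at 0.18, 0.0459, 0.106 and 0.089 CPM in SW620 and 238, 213, 205 and 225 in SW480. CHGA, which encodes chromogranin A, differed by -7.41 ± 0.27 (-8.24 without SW620 replicate 1) and lies in a lower stretch of chromosome 14. TFF3, a goblet cell peptide, was higher (4.96 ± 0.12). Crypt stem cell genes were 2-fold higher for 9 of 23 (39.1%, against 9.37% of all genes) and 2-fold lower for 4 (17.4%, against 19.6%). PROM1, which encodes CD133, was at 23.9, 26.1, 23.8 and 24.3 CPM in SW620 and 0.0396, 0, 0.143 and 0 in SW480, and CD24 was 16.7-fold higher. CD44, which is often used beside them as a surface marker, was at 15.3, 12.4, 12.3 and 12.5 CPM in SW620 and 173, 149, 141 and 140 in SW480, lower in SW620.

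**Figure D3:**
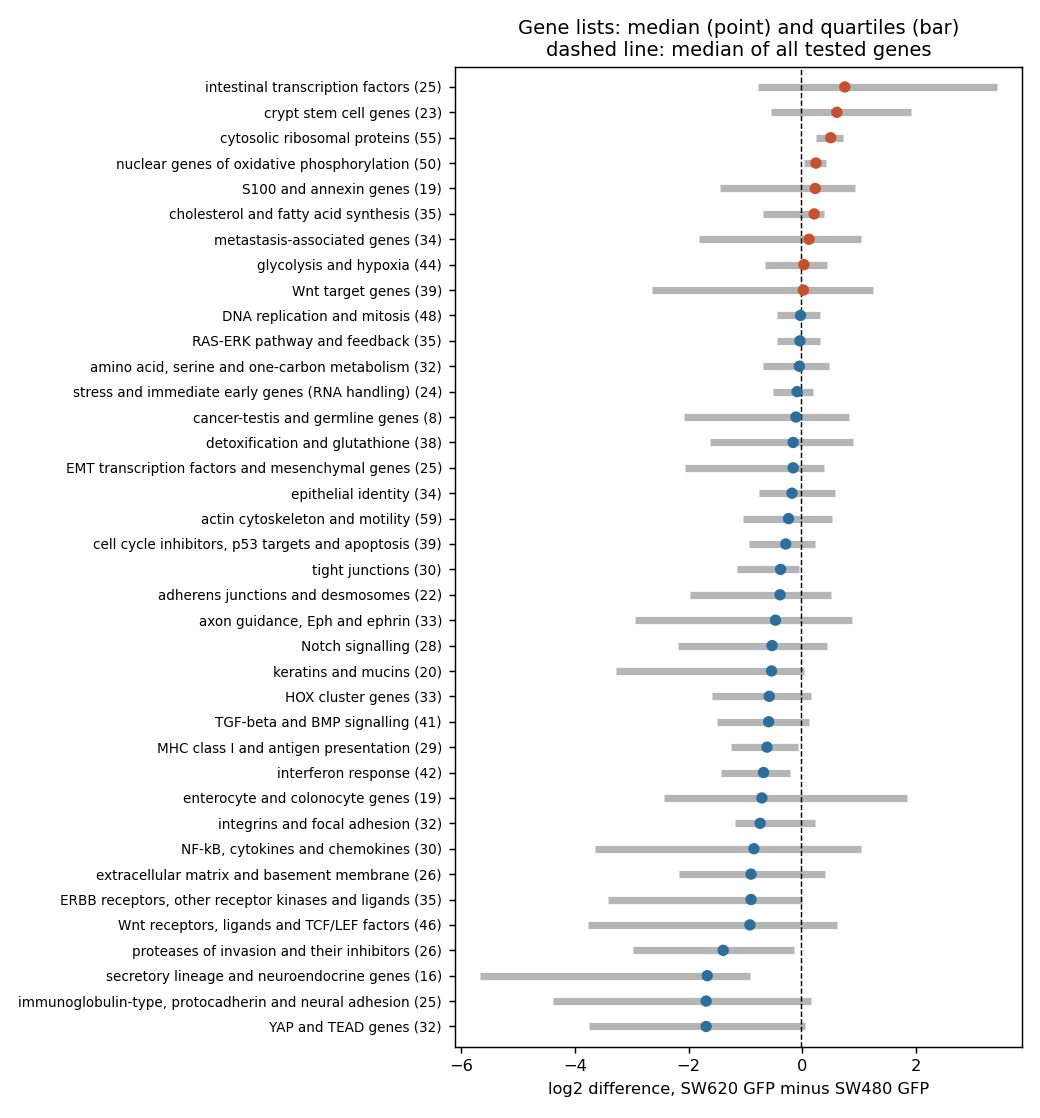
Median (point) and quartiles (bar) of the log2 difference, SW620 GFP minus SW480 GFP, over the tested members of 38 gene lists, with the number of members in brackets and the median of all tested genes as a dashed line. The list of intestinal transcription factors, which also holds the peptide gene TFF3, has the highest median, 0.75. The list of YAP and TEAD genes is among the lowest, at -1.69.

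YAP and TAZ are coactivators that work with TEAD factors on genes of growth, matrix and cell shape, and the list used here holds such targets together with components of the pathway (YAP1, WWTR1, the TEAD genes, LATS1, LATS2, SAV1 and VGLL4). Of 32 genes tested, 1 was 2-fold higher, the component VGLL4, a competitor of YAP for TEAD, and 19 were lower (59.4%, against 19.6% of all genes), with a median of -1.69. The most used readout genes of the pathway are ANKRD1, CCN1 and CCN2. The files list CCN1 as CYR61 and CCN2 as CTGF. The bases before the start of ANKRD1 and CCN2 are shown to let the TEAD motif be read beside the values. Both come from RefSeq on GRCh38.p14, minus strand, 5′ to 3′ (ANKRD1 at chr10:90921088-90921337, CCN2 at chr6:131951373-131951622), and the capitals mark GGAATG, the core of the motif that TEAD factors bind.
ANKRD1: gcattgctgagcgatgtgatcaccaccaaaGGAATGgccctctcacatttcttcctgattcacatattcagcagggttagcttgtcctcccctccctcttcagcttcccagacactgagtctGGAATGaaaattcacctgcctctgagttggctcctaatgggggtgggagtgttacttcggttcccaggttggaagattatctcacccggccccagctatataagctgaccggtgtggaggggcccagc
CCN2: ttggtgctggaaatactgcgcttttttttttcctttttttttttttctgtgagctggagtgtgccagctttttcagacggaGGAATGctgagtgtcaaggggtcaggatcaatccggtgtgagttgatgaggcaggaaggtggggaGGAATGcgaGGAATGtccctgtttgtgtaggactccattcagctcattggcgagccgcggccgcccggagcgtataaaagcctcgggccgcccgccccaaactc
The 250 bases before ANKRD1 held the motif 2 times and those before CCN2 3 times, counting GGAATG and its reverse complement CATTCC, which do not overlap here. Of all 35116 windows of this length 11.9% held at least 1 and 0.940% held 2 or more. Of 34 listed genes 27 were matched, some to several windows, and 10 of their 38 windows held the motif (26.3%). Genes with the motif went both ways. NUAK2 (2 matches, log2 0.51), AJUBA, FOXF2 and YAP1 were higher in SW620, and ANKRD1, CTGF, AMOTL2, AXL and TGFB2 were lower. PTPN14 held the motif and was not called. IGFBP3, GLI2 and NT5E were lower and had no match, and CYR61 had no window to search. A match of letters is a description and not a binding site.

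ANKRD1, which encodes a nuclear and muscle ankyrin-repeat protein, was at 0.09, 0, 0.053 and 0 CPM in SW620 and 264, 311, 298 and 312 in SW480. Its 3 counts against 26748 gave a ratio of 8393 (95% interval 2872 to 40700). CYR61 (CCN1), a matricellular protein, was at 4.82, 10.2, 10.1 and 6.98 CPM in SW620 and 99.3, 111, 108 and 109 in SW480 (log2 -3.74 ± 0.18). CTGF (CCN2), its relative, was at 2.07, 6.66, 7.05 and 6.23 CPM in SW620 and 18.2, 21.1, 22.3 and 25 in SW480, a smaller difference (-1.98 ± 0.29). In all 3 genes every SW620 library was below every SW480 library, and CYR61 and CTGF were lowest in SW620 replicate 1. AMOTL2 (-2.89 ± 0.06), CRIM1 (-6.23 ± 0.11) and IGFBP3 (-7.16 ± 0.15) were lower too, and DLC1, a GTPase-activating protein gene, had no count in SW620. The components went both ways. YAP1 (0.47 ± 0.07), TEAD4 (0.65 ± 0.06), the kinase gene LATS1 (0.89 ± 0.07) and VGLL4 (1.54) were higher. TEAD1 (-0.61), TEAD2 (-1.72), TEAD3 (-1.3), LATS2 (-1.66) and SAV1 (-0.7) were lower. WWTR1, which encodes TAZ, was lower as well, at 12.5 ± 1.99 CPM in SW620 and 81 ± 3.93 in SW480 (-2.71 ± 0.09).

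Receptor kinases went opposite ways, with EGFR lower and MET higher. EGFR (chromosome 7, 55019017 to 55211628, plus strand) was at 0.27, 0.0459, 0.159 and 0 CPM in SW620 and 55.3, 34.9, 34.1 and 39.7 in SW480, a log2 difference of -8.38 ± 0.33 (adjusted p = 1.25e-10), or -9.21 without SW620 replicate 1. Its ligand genes AREG (-3.26) and EREG (-3.54) were lower too. MET, the receptor for hepatocyte growth factor, was at 191, 212, 210 and 217 CPM in SW620 and 46.3, 40.8, 40.5 and 50.1 in SW480, 4.67-fold higher. FGFR4 (2.56 ± 0.09) and ERBB3 (1.54) were also higher. Of 35 receptors and ligands 4 were 2-fold higher (11.4%) and 16 lower (45.7%). Of 35 genes of the RAS-ERK pathway and its feedback, 2 were 2-fold higher (5.71%) and 7 lower (20%), with a median of -0.04. The lower share was close to the 19.6% of all genes. Among the feedback genes, DUSP5 (-2.96 ± 0.12), DUSP6 (-2.06) and SPRY4 (-1.76) were lower, whereas SPRY1 was higher (2.71). SPRY1 lies in a stretch whose genes were mostly lower.

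In TGF-beta and BMP signalling 5 of 41 genes were 2-fold higher (12.2%) and 16 lower (39%). SMAD4, the common mediator, was low in both lines, at 1.24 ± 0.563 CPM in SW620 and 2.27 ± 0.443 in SW480 (-0.87 ± 0.27, adjusted p = 0.00891). The inhibitory SMADs went opposite ways, SMAD6 at 3.78 ± 0.14 and SMAD7 at -2.34 ± 0.10. TGFBR2, a receptor, was higher (1.07) and ACVR1 lower (-2.50 ± 0.10). In the Notch pathway 5 of 28 were 2-fold higher and 11 lower (39.3%). NOTCH2 was at 2.07, 1.33, 1.96 and 1.65 CPM in SW620 and 122, 113, 105 and 114 in SW480. MFNG, a glycosyltransferase that modifies Notch receptors, was at 210, 169, 157 and 167 CPM in SW620 and 0.554, 1.12, 0.951 and 1.09 in SW480, 190-fold higher. The feedback gene NRARP (-3.61 ± 0.10) was lower and the ligand gene DLL4 (3.05 ± 0.11) higher.

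Genes of antigen presentation were mostly lower in SW620. Of 29 tested with MHC class I, edgeR called 4 higher (13.8%, against 37.7% of all genes) and 19 lower (65.5%, against 40.4%). None of the 4 reached 2-fold, and 12 were 2-fold lower (41.4%, against 19.6%). HLA-B was at 11, 6.89, 6.42 and 8.63 CPM in SW620 and 153, 125, 122 and 107 in SW480 (log2 -3.94 ± 0.16), and HLA-C was lower by less (-0.41). Class I genes are near-identical in part and reads that align to several of them are not counted, so their levels are uncertain. PSMB9, a subunit of the immunoproteasome, was at 0.768 ± 0.238 and 15.1 ± 1.96 CPM, and CD74, the invariant chain, at 0.0456 ± 0.065 and 16.6 ± 1.19. Of 42 interferon response genes 3 were 2-fold higher (USP18, LGALS3BP, IFIT5) and 15 lower (35.7%), with BST2, which tethers enveloped virus particles, at -5.49 ± 0.18. Of 30 cytokine and NF-kB genes, 8 were 2-fold higher and 15 were 2-fold lower. CCL20 (2.78 ± 0.983 CPM in SW620 and 0.034 ± 0.0436 in SW480) and CXCL8 (3.00) were higher and ICAM1 (-4.32 ± 0.13) and LIF (-3.46 ± 0.10), a cytokine of the interleukin-6 family, lower.

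Ribosomal and respiratory genes differed by little and mostly in 1 direction. Of 55 cytosolic ribosomal protein genes edgeR called 47 higher in SW620 (85.5%, against 37.7% of all genes) and 2 lower, with a median of 0.50. RPS12 was at 1324, 1260, 1179 and 1200 CPM in SW620 and 448, 464, 487 and 452 in SW480, the largest of them (log2 1.42 ± 0.06); it lies in a stretch higher in SW620. Only RPS12 and RPL37 exceeded 2-fold, and RPL37 also lies in a stretch higher in SW620 (chromosome 5, 31.4 to 52.8 Mb). The median was 0.07 over 2822 other genes whose longest annotated transcript was no longer than that of 3 in 4 ribosomal protein genes. The longest annotated transcript need not be the one expressed, so a part of transcript length in this difference was not tested. Of 50 nuclear genes of oxidative phosphorylation edgeR called 35 higher (70%, against 37.7% of all genes), with a median of 0.24. With scaling to the library total alone this median was 0.13, and that of the ribosomal protein genes was 0.39. In the respiratory list 1 gene was 2-fold higher (NDUFB8) and 1 lower (NDUFB5, in a lower stretch). In DNA replication and mitosis edgeR called 21 of 48 genes higher (43.8%, against 37.7% of all genes) and 22 lower (45.8%, against 40.4%). Both shares were near those of all genes. None was 2-fold higher, CDC25C (-1.05) and RRM2 (-1.02) were 2-fold lower, and the median was -0.03.

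In glycolysis and hypoxia 5 of 44 were 2-fold higher (11.4%, against 9.37% of all genes) and 9 lower (20.5%, against 19.6%), both near the shares of all genes. The median was 0.03, or -0.08 with scaling to the library total alone. EPAS1, which encodes HIF-2 alpha (chromosome 2, 46293667 to 46386697, plus strand), was at 0.18, 0.368, 0.106 and 0.356 CPM in SW620 and 242, 227, 228 and 231 in SW480, 881-fold lower. SLC2A3, the glucose transporter GLUT3, was at 51.6, 40.6, 41.1 and 39.8 CPM in SW620 and 1483, 1423, 1368 and 1459 in SW480, and SLC2A1 was lower by less (-1.40). CA9, a carbonic anhydrase induced in hypoxia, was higher (4.49 ± 0.14), opposite to EPAS1. CDKN1A, the p21 inhibitor of the cell cycle, was at 1.35, 1.33, 1.54 and 1.42 CPM in SW620 and 68.3, 80.7, 81.5 and 76.1 in SW480 (log2 -5.76 ± 0.10), and the death receptor gene FAS differed by -5.13 ± 0.15. In detoxification 9 of 38 were 2-fold higher and 11 lower: the aldose reductase gene AKR1B1 was 146-fold and the efflux pump gene ABCC2 124-fold higher, and ALDH1A3, which makes retinoic acid, 38.8-fold lower. HOX genes were 2-fold lower for 13 of 33 (39.4%). HOXB2 (-3.61 ± 0.12), HOXB3 (-2.31 ± 0.08) and HOXB8 (-2.16 ± 0.07) lie in 1 stretch of chromosome 17.

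Some genes were expressed in 1 line and close to silent in the other. With at least 5 CPM in 1 line and at most 3 counts over the 4 libraries of the other, 15 genes were detected in SW620 and 115 in SW480; 9 and 63 of these had no count at all in the other line. PEG10, an imprinted gene of retrotransposon origin (chromosome 7, 94656325 to 94669695, plus strand), was at 223, 207, 201 and 187 CPM in SW620 and had 1 count in SW480. Its imprinted neighbour SGCE, which encodes epsilon-sarcoglycan and overlaps it at the start, was at 14.1 ± 0.912 CPM in SW620 with no count in SW480, at least 427-fold higher. Both sit within a stretch of chromosome 7 in which 125 of 134 genes were lower. KRT40 was at least 1129-fold and the coagulation factor gene F5 at least 507-fold higher in SW620. GNG11, a G protein gamma subunit from the same stretch as PEG10, was at 137, 134, 136 and 126 CPM in SW480 with no count in SW620, at least 3793-fold lower. PHLDB2, a partner of cortical microtubules, had 3 counts in SW620 and 45228 in SW480. Neighbouring genes were sometimes near silent together, as with SAA1 and SAA2, or PSG1 and PSG5 (at least 1771-fold and 680-fold lower), although members of these families are near-identical and their split is uncertain. The 15 largest differences in each direction were mostly of this kind. HLTF, a DNA helicase of replication fork repair, was at 46.9 ± 5.5 CPM in SW620 and 0.0535 ± 0.0403 in SW480, and the metalloprotease gene ADAMTS18 at 21.4 ± 3.32 CPM in SW620 with 1 count in SW480. COL8A1, CYTL1, GJB7, C3orf14, C22orf34 and LINC00704 had no count in SW480, and ANO4, KRT74, PDE4B, PTPRG and TENM3 had none in SW620. IGFBP7, a secreted protein of the IGF-binding family, had 1 count in SW620 and was at 79.2 ± 4.28 CPM in SW480. The near-silent state held in the dnLEF1 libraries of the same line for 13 of 15 and 89 of 115 genes, which again had at most 3 counts. Over 30 counts were found there for 6 genes, VAT1L (558) and BTBD11 (268) most of all.

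Differences ran along chromosomes as well. The genes whose mean log2 CPM exceeded 2 were put in order of position, and windows of 25 neighbours in which at least 23 moved the same way were joined into stretches. There were 27 stretches higher in SW620 with 994 genes and 17 lower with 824 genes, of 10479 genes placed. The stretch with the highest median was on chromosome 16 from 58.5 to 81.7 Mb, where 101 of 111 genes were higher, with a median of 1.50. On chromosome 7, from 82.8 to 116.3 Mb, 125 of 134 genes were lower, with a median of -1.01. The longest in genes was on chromosome 3 from 107.5 to 149.0 Mb, with 130 of 142 lower and a median of -0.56, and it holds PHLDB2 and AMOTL2. LEF1 (-3.94) lies in a stretch of chromosome 4 from 94.5 to 113.4 Mb with a median of -0.48, and CDH1 (2.29) in that of chromosome 16. The part of the stretches in the differences of single genes was not tested. Chromosome 6 from 109.0 to 139.2 Mb was higher (0.85) and holds MYB, PERP and RPS12. Medians of whole chromosomes ran from -0.30 for chromosomes 3 and 7 to 0.48 for chromosome 16.

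**Figure D4:**
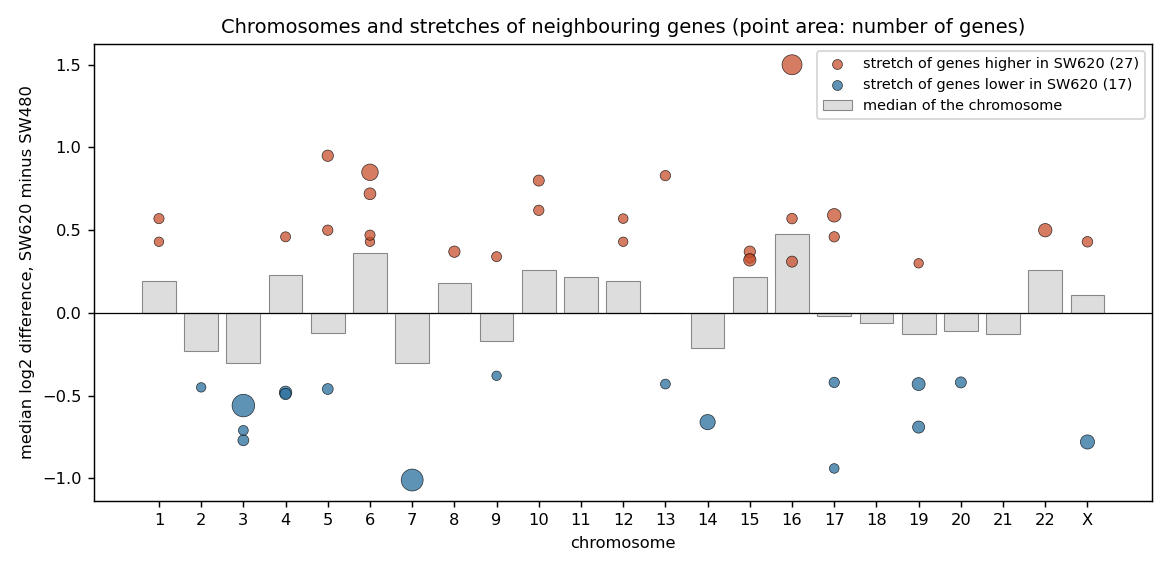
Median log2 difference, SW620 GFP minus SW480 GFP, of each chromosome (bars) and of stretches of neighbouring genes that were mostly higher (27, orange) or lower (17, blue) in SW620, with point area in proportion to the number of genes. The stretches of chromosome 16 at 1.50 and chromosome 7 at -1.01 lie farthest from 0.

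The line difference was also measured in the dnLEF1 libraries, which share no library with the GFP comparison. There 14397 genes were tested and 78.9% were called, with 12.6% of genes 2-fold higher in SW620 and 20.9% lower. Across 14021 genes in both fits, which are not independent of each other, the log2 differences correlated at 0.911 (Pearson) and 0.888 (Spearman). Of the genes 2-fold higher in the GFP comparison and tested again, 1248 of 1314 (95%) were called higher and 16 lower. Of those 2-fold lower, 2458 of 2582 (95.2%) were called lower and 41 higher. HNF4A (4.17), VIL1 (6.95), LCP1 (7.20), EPAS1 (-7.58) and ANKRD1 (-12.45) kept their direction.

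A minority of genes changed direction. The genes named here were chosen after their values were seen, apart from CDH1, AXIN2 and CDX2. There were 295 genes called one way in GFP and the other way in dnLEF1 libraries, 30 of them at 2-fold or more in both. These genes were selected by their opposite calls, so a test of the difference adds little for them. ALCAM, an adhesion molecule of the immunoglobulin type, was higher in SW620 with GFP (11.8, 12.6, 16.3 and 12.8 CPM against 2.37, 3.39, 3 and 3.19) and lower with dnLEF1, at 1.87 ± 0.32 CPM in SW620 and 20.8 ± 2.78 in SW480. CDH1 went from 4.88-fold higher with GFP to -0.54 ± 0.11 with dnLEF1, a change of -2.83 ± 0.18 (adjusted p = 7.88e-11). AXIN2 went from -0.73 with GFP to 2.19 ± 0.07 with dnLEF1, where it was at 320 ± 11.2 CPM in SW620 and 70 ± 4.52 in SW480. CDX2 went from -0.88 to 6.02 ± 0.27, at 8.85 ± 1.6 CPM in SW620 and 0.132 ± 0.0614 in SW480 with dnLEF1.

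**Figure D5:**
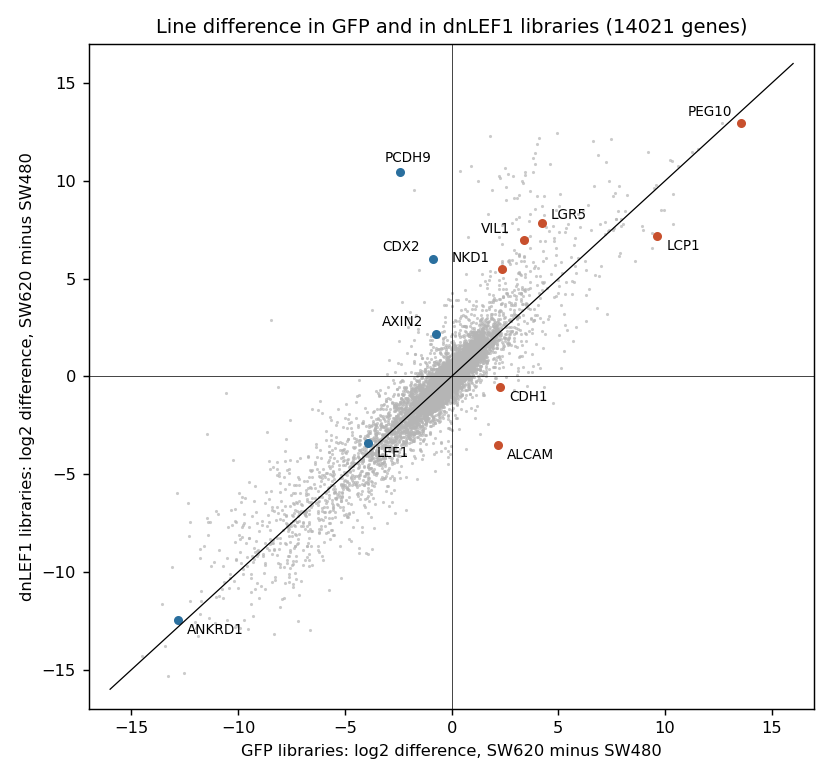
Log2 difference between the lines in GFP libraries (x axis) and in dnLEF1 libraries (y axis) for 14021 genes tested in both, with the diagonal marking equal differences. Most genes lie along the diagonal, while CDH1, ALCAM, AXIN2, CDX2 and PCDH9 fall where the sign changes.

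Immediate early genes varied within the lines. FOS, a part of the AP-1 transcription factor and named here after its values were seen, was at 54.5, 310, 312 and 323 CPM in SW620 and 134, 257, 263 and 231 in SW480. Replicate 1 was the lowest in either line, the lines overlapped and FOS was not called (0.18 ± 0.56, adjusted p = 0.786). JUN was called higher (1.80 ± 0.23), and replicate 1 was again lowest in both lines, at 195 and 80.5 CPM. Of 24 stress and immediate early genes 9 were called: 3 higher (12.5%, against 37.7% of all genes) and 6 lower (25%, against 40.4%). Their part in the differences of CYR61, CTGF and DUSP6, which were also lowest in SW620 replicate 1, was not tested.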

How the data were processed

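The authors deposited 1 count file per library, with raw counts of reads per gene symbol and summary lines in HTSeq format. The submitters' processing notes name Trimmomatic, TopHat2, HTSeq, DESeq2 and hg38; no source used here states versions, the gene annotation or the strand setting. Counts in the 5 summary lines, 20.7% to 50.5% of all counts of a GFP library, stayed out of totals and tests. The 4 SW620 GFP and 4 SW480 GFP libraries were fitted alone with edgeR 4.0.16 in R 4.3.3: filterByExpr, TMM scaling, robust quasi-likelihood test, Benjamini-Hochberg adjustment over all tested genes, called below 0.05. Differences are log2 SW620 minus SW480 with their SE. CPM values are TMM-scaled, are not corrected for transcript length and compare lines, not genes. The dnLEF1 libraries had a fit of their own, and the line by construct term came from a fit of all 16 libraries that was added after seeing the data. Ratios of genes near 0 have exact Poisson intervals or a floor of 3 counts over a group. Positions are from GENCODE release 44, matched for 22923 of 26485 symbols. The gene lists and members were chosen with earlier results of these data known. Named genes were the 15 largest differences each way (at least 5 CPM in 1 line, no overlap), up to 4 members per list with the smallest adjusted p, a panel of regulators, the genes highest in 1 line and near 0 in the other, and further members only to show what made up a count. Alternatives were RLE factors, library totals, other filters, DESeq2 1.42.0, limma voom (limma 3.58.1), all 16 libraries, a replicate block and leaving out each library; those for the dnLEF1 libraries were chosen after seeing the data. Some genes are not reported here. The fits were tested on simulated data.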

Additional observations from a re-analysis of the deposited data

Results flagged for a closer look

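The values here, apart from those of the last paragraph, are those of a library far from the other 3 of its line, by the gap to the nearest library over the whole range. Chance alone gives about 1 such gap in 20 groups. SW620 replicate 3 had 39.4% of its counts in the multi-aligned line (7.94% to 8.71% in the other 3) and 50.5% in all summary lines (21.2% to 23.8%). SW620 replicate 4 had 16486 genes with a count, against 16353 to 16365.

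Only genes named in the text were screened. They are many and were screened in both lines, so chance alone would give a number of such gaps. Whether the genes listed here exceed that number was not tested. Of the genes found in SW620, all except SLC2A1 had replicate 1 as the library apart. The immediate early genes FOS (54.5 CPM against 310 to 323) and JUN (195 against 367 to 385) were low there, as were the matricellular gene CTGF (2.07 CPM) and the chemokine gene CXCL8 (10.5 CPM). It was also low for CTNNB1 (602 CPM), LRP6 (163 CPM) and PCDH9 (6.26 CPM), and high for CD44 (15.3 CPM), FSCN1 (362 CPM), PSMB9 (1.13 CPM) and SLC2A3 (51.6 CPM). SW620 replicate 4 was high for SLC2A1 (534 CPM).

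In SW480, replicate 1 was low for KRT5 (1930 CPM against 2565 to 2649), GSN (112 CPM), S100A4 (467 CPM), TDGF1 (1.54 CPM), AJUBA (57.2 CPM) and, by a narrow range, AMOTL2 (173 CPM). It was high for KRT23 (773 CPM), SLC9A2 (5.14 CPM), SOX2 (12.6 CPM), NT5E (40.5 CPM against 16.6 to 17.1), and the serum amyloid genes SAA1 (66.6 CPM against 21.7 to 23.4) and SAA2 (9.02 CPM). Replicate 4 was high for EFNB2 (22.9 CPM) and low for EMP3 (42.6 CPM) and RPL37 (361 CPM). Replicate 3 was low for LEF1 (48.8 CPM) and high for FZD10 (1.19 CPM), and replicate 2 was low for CA9 (0.804 CPM).

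Genes named in the text that were called one way in GFP and the other way in dnLEF1 libraries are listed with the line and construct term of the 16-library edgeR fit. The term was called for 4267 of 14926 genes tested, so other genes differed as well. On the log2 scale, dnLEF1 minus GFP, it was -5.65 for ALCAM, -2.83 for CDH1, -1.76 for CD68, -1.48 for NUAK2, 2.92 for AXIN2 and 6.89 for CDX2. For the protocadherin gene PCDH9 it was 12.86, a fitted value that is no bound because SW480 had no count of it with dnLEF1.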

How the results depend on the processing

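The number of genes called, 11203, ran from 10565 with a filter at 1 CPM to 12487 with no filter, was 12018 with DESeq2 and 11102 with library totals alone, and ran from 10864 to 11386 when each library was left out. The 2-fold count of 4161 ran from 3591 to 5581 over all alternatives and from 4208 to 4345 when each library was left out. In the dnLEF1 libraries the 11362 calls ran from 11078 to 11407 when each was left out. List medians above 0 numbered 9, also with RLE factors, and 7 with library totals alone. Genes near 0 in 1 line numbered 130 at 5 CPM and 403 at 1 CPM. Of 191 genes named by the rule, 188 were called, and over 3055 alternative values none reversed and 3 genes changed their call, among them SNAI2 (called with all 16 libraries and without 2 single libraries) and LYZ. Same-numbered libraries of the lines share only a number: their deviations correlated at 0.2563, 0.03048, -0.1587 and 0.2182. With the replicate number as a block, 11276 genes were called in GFP, 4164 at 2-fold or more, and 11371 in dnLEF1 libraries. Fitted differences of genes with a few counts in 1 line moved most when a library was left out, such as FZD7 from -10.17 to -12.56 without SW620 replicate 3. Depth limits these genes: 3 counts over a group are the floor used.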
